A study of Mus musculus with 9 samples.

Results

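Toll-like receptors (TLRs) are sensors of microbial molecules, and 10 genes of this system were followed here through cultures of transduced mouse bone marrow cells. They are the receptor genes Tlr1, Tlr2, Tlr4, Tlr6, Tlr7, Tlr8, Tlr9 and Tlr13 and the co-receptor genes Cd14 and Ly96, chosen by gene name from the 55274 gene identifiers of each library. Of the 10 genes, 9 passed the filter on low values (1 FPKM or more in 3 or more libraries), as did 13493 genes in all, and Tlr9 did not. FPKM count fragments per kilobase of transcript, relative to all mapped fragments, so levels can be compared between genes per length.

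The 9 RNA-seq libraries formed 3 groups of 3. NRASG12D cells carried the active NRAS mutant in a retroviral vector with a blue fluorescent protein, NUP98-NSD1 cells carried the fusion gene in a vector with a green fluorescent protein, and NUP98-NSD1+NRASG12D cells carried both. All groups came from the bone marrow of female C57BL/6J mice of 6 to 8 weeks that had received 5-fluorouracil (150 mg/kg) 4 days before harvest, and all were stimulated for 48 h with human IL-6 (10 ng/mL), mouse IL-3 (6 ng/mL) and mouse SCF (20 ng/mL), then sorted by fluorochrome and expanded. Cells with an empty vector were not analysed here, so every difference is between transduced cultures, and the oncogenes were expressed from the retroviral vectors. The NRASG12D cells are described in the study as mostly mast cells, so a comparison with them is also a comparison of cell types. No source says whether the libraries of a group came from separate cultures, so the p-values measure only the spread between these libraries, which may be technical.

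TLRs recognize their ligands with a horseshoe of leucine-rich repeats and signal through a cytoplasmic TIR domain to the adaptors MyD88 and TRIF, and from there to NF-kappaB and interferon regulatory factors. Tlr1, Tlr2, Tlr4 and Tlr6 act mainly at the cell surface, where TLR2 pairs with TLR1 or TLR6 to bind bacterial lipopeptides and TLR4 binds lipopolysaccharide together with MD-2, the product of Ly96, after CD14 has handed the lipid over. Tlr7, Tlr8, Tlr9 and Tlr13 act in endosomes on nucleic acids, TLR9 on DNA and TLR13 on bacterial ribosomal RNA. In blood formation these receptors are best known from monocytes, macrophages, neutrophils and dendritic cells, and mast cells carry some of them as well.

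The libraries held an estimated 23700000 to 37100000 fragments, read from the steps between low FPKM values. Nras, which the vector adds to, had 348 to 479 FPKM in NRASG12D, 47.7 to 51.2 FPKM in NUP98-NSD1 and 245 to 701 FPKM in NUP98-NSD1+NRASG12D libraries, as the labels require. Markers of mast cells (10 genes) summed to 30030 to 32640 FPKM in NRASG12D, 26840 to 31850 FPKM in NUP98-NSD1 and 744.5 to 4336 FPKM in NUP98-NSD1+NRASG12D libraries, and 9, 10 and 10 of them reached 1 FPKM in every library of the group. Cpa3 is listed at 0 in all NRASG12D libraries, although the other 9 mast cell markers were present, and had 12560 to 14380 FPKM in NUP98-NSD1 libraries. Without Cpa3 the sums were 30030 to 32640, 13680 to 17470 and 464.9 to 2515 FPKM. The overlap of the sums of the first 2 groups thus rests on this gene. Without it, the NUP98-NSD1 sums still lay far above those of the cells with both oncogenes. Whether the 0 of Cpa3 reflects absent transcripts or a failed estimate was not tested. Markers of monocytes and macrophages (7 genes) summed to 65.5 to 71.2, 502.3 to 933.7 and 1798 to 4563 FPKM in the same order, with 4, 7 and 7 of them at 1 FPKM or more in every library, and Itgam below 1 FPKM in all NRASG12D libraries. Ly6c2 alone had means of 0.723, 440 and 2134 FPKM in these groups. Cx3cr1 was the only one of the 7 whose mean fell, with 17.9, 12.1 and 3.18 FPKM. Markers of neutrophils and their precursors (11 genes) summed to 2.79 to 15.5, 1366 to 5464 and 8476 to 18820 FPKM, with 1, 11 and 11 of them present and Camp and Ltf listed at 0 in the NRASG12D libraries. Markers of megakaryocytes and erythroid cells (6 genes) summed to 480.0 to 563.7, 253.7 to 309.3 and 78.8 to 1218 FPKM, with 1, 5 and 2 of them present. Dendritic cell markers (6 genes) summed to 0.833 to 1.04, 4.63 to 8.10 and 4.18 to 13.5 FPKM, with 0, 1 and 1 of them present. Plasmacytoid dendritic cell markers (6 genes) summed to 1.89 to 2.60, 10.8 to 15.65 and 20.05 to 31.9 FPKM, with 1, 1 and 2 of them present. The B cell markers (6 genes) reached a summed 9.22 FPKM and the T and NK cell markers (6 genes) 1.16 FPKM at most. In bulk libraries, fewer cells of a type and less RNA per cell cannot be told apart. The summed markers of monocytes and macrophages, of neutrophils and, at much lower levels, of plasmacytoid dendritic cells rose over the 3 groups. Most of the TLR genes described next did so too. The summed markers of mast cells were lowest in the cells with both oncogenes. Dendritic cell sums were higher in both groups with NUP98-NSD1 than in NRASG12D libraries, and these 2 groups overlapped. The remaining lists did not rise from group to group. The part of the marker levels in the results was not tested.

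Most of the TLR genes were higher in NUP98-NSD1 cells than in NRASG12D cells, and Tlr2, Tlr13 and Cd14 were higher again when both oncogenes were present. When NUP98-NSD1 cells were set against NRASG12D cells, 7 of the 9 tested genes were higher (Tlr1, Tlr2, Tlr4, Tlr7, Tlr8, Tlr13 and Cd14), Ly96 was lower, and Tlr6 did not pass an adjusted p of 0.05 (limma, Benjamini-Hochberg over all tested genes). Of all tested genes, 42.2% were higher and 9.98% lower in this comparison. In the cells with both oncogenes the same 7 genes were higher than in NRASG12D cells, where 24.2% of all genes were, and Ly96 and Tlr6 did not pass (14.1% of all genes were lower). Against NUP98-NSD1 cells, the cells with both oncogenes had higher Tlr2, Tlr13 and Cd14, and 6 genes did not pass, where 2.3% of all genes were higher and 6.31% lower. For the 9 genes the median log2 fold change was 1.47, 2.68 and 1.31 in these comparisons, and that of all tested genes was 0.27, 0.23 and -0.059. Median-ratio scaling moved the medians of all genes to -0.013, 0.025 and 0.028 and those of the 9 genes to 1.30, 2.64 and 1.37. Each pair of these comparisons shares the libraries of a group. Tlr1, Tlr2, Tlr7, Tlr8 and Cd14 were under 1 FPKM in every NRASG12D library. Only Tlr4 and Ly96 would have passed the filter on low values through the NRASG12D libraries alone. The other tested genes of the 9 passed it through libraries with NUP98-NSD1, so their calls and medians against NRASG12D cells are not independent of the filter.

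**Figure D1:**
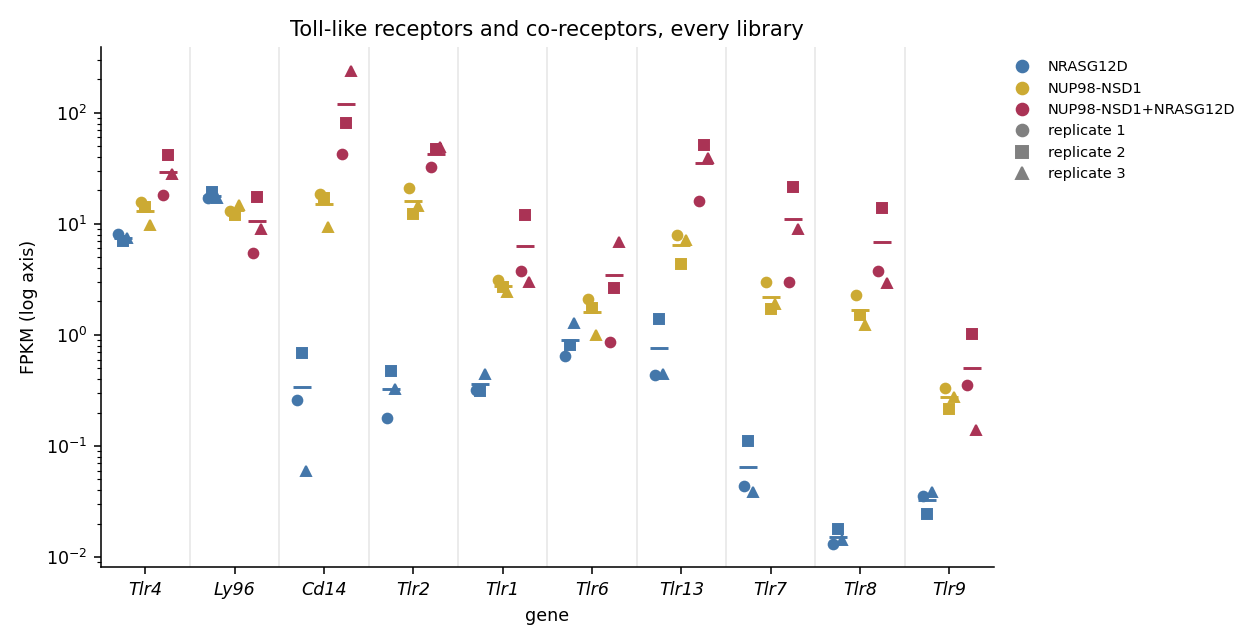
FPKM of the 10 genes (log axis) in each of the 9 libraries, with colour for the group, symbol for the replicate and a bar for the mean of 3 libraries. The NRASG12D libraries lie at or below 1.40 FPKM for all genes other than Tlr4 (7.0 to 8.15 FPKM) and Ly96 (17.2 to 19.4 FPKM).

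In NRASG12D cells only the core of the lipopolysaccharide receptor stood out. Ly96 ranked first among the 10 genes by FPKM in all 3 NRASG12D libraries and Tlr4 second, and the next gene, Tlr13 or Tlr6, did not exceed 1.40 FPKM. In NUP98-NSD1+NRASG12D cells Cd14 ranked first in all 3 libraries, and Ly96 ranked 5 or 6. Tlr9 ranked last in all 6 libraries with NUP98-NSD1.

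Tlr4 (ENSMUSG00000039005.13, chromosome 4 from 66827584 to 66930284, plus strand, GRCm38) encodes the lipopolysaccharide receptor itself. It had 8.15, 7.0 and 7.42 FPKM in the NRASG12D libraries, 15.6, 14.1 and 9.82 FPKM in the NUP98-NSD1 libraries and 18.3, 41.7 and 28.2 FPKM in the NUP98-NSD1+NRASG12D libraries. No group overlapped another, and the spread was widest in the cells with both oncogenes. The log2 fold change was 0.71 (SE 0.17, adjusted p = 0.0115) in NUP98-NSD1 against NRASG12D cells, and this call was lost after quantile normalization (0.39, adjusted p = 0.0824), median-ratio scaling (0.40, adjusted p = 0.0542) and in a fit of all 9 libraries (adjusted p = 0.086). With both oncogenes it was 1.76 (SE 0.29, adjusted p = 0.0035) against NRASG12D and 1.05 (SE 0.32, adjusted p = 0.0923) against NUP98-NSD1 cells.

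Ly96 (ENSMUSG00000025779.10, chromosome 1 from 16688051 to 16709611, plus strand) encodes MD-2, the small secreted protein whose pocket holds the lipid A of lipopolysaccharide in the complex with TLR4. It was the only one of the 10 genes with its highest mean in NRASG12D cells, at 17.2, 19.4 and 17.2 FPKM. The NUP98-NSD1 libraries had 13.0, 12.1 and 14.9 FPKM, all below the NRASG12D libraries. The NUP98-NSD1+NRASG12D libraries had 5.51, 17.6 and 8.95 FPKM, and the second of them lay within the NRASG12D range. The log2 fold change was -0.41 (SE 0.11, adjusted p = 0.0166) in NUP98-NSD1 against NRASG12D cells and kept its sign under every alternative, from -0.73 to -0.34. It no longer passed with all 9 libraries in the fit (adjusted p = 0.348) or without NRASG12D replicate 2, NUP98-NSD1 replicate 1 or NUP98-NSD1 replicate 2 (adjusted p = 0.0564, 0.0574 and 0.0654). In cells with both oncogenes against NRASG12D cells the value was -0.83 (SE 0.36, adjusted p = 0.107), and without NUP98-NSD1+NRASG12D replicate 2 it was -1.23 (adjusted p = 0.00798).

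Cd14 (ENSMUSG00000051439.7, chromosome 18 from 36725067 to 36726798, minus strand) encodes the anchored co-receptor that passes lipopolysaccharide to TLR4 and MD-2. It had 0.262, 0.688 and 0.0597 FPKM in the NRASG12D libraries, 18.4, 17.1 and 9.36 FPKM in the NUP98-NSD1 libraries and 42.2, 81.0 and 237.5 FPKM in the NUP98-NSD1+NRASG12D libraries. The groups did not overlap, and the lowest NRASG12D value corresponded to about 2 fragments, under the floor of 3 fragments. On the log2(FPKM + 1) scale, which understates changes of low genes, it rose by 3.55 (SE 0.28, adjusted p = 0.000309) in NUP98-NSD1 and by 6.17 (SE 0.58, adjusted p = 0.000395) in NUP98-NSD1+NRASG12D against NRASG12D cells. Cells with both oncogenes exceeded NUP98-NSD1 cells by 2.62 (SE 0.60, adjusted p = 0.0446). That last call was lost in 5 of the 6 refits with a library left out, without each NUP98-NSD1 library (adjusted p = 0.0978, 0.119 and 0.161) and without replicate 2 or 3 of NUP98-NSD1+NRASG12D (adjusted p = 0.0851 and 0.0608). It was also lost with a pseudocount of 0.1 (adjusted p = 0.0507), with median-ratio scaling (adjusted p = 0.0605) and with the replicate block (adjusted p = 0.0586). Within the NUP98-NSD1+NRASG12D libraries the summed monocyte and macrophage markers were 1798, 2722 and 4563 FPKM, of which Ly6c2 made up 1345, 1384 and 3674 FPKM. Of the 7 markers, Ly6c2 and Itgam had the order of Cd14 in these libraries and the other 5 did not. Of the 11 neutrophil markers, S100a8, S100a9, Ngp and Ly6g also had the order of Cd14 and the others did not.

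Because the partners of a complex moved unequally, their levels were also set against each other within each library, a measure that a single scaling factor per library, as in median-ratio scaling, leaves as it is, although quantile normalization can change it. These ratios were chosen after their values had been seen. The ratio of Tlr4 to Ly96 was 0.472, 0.362 and 0.430 in the NRASG12D libraries, 1.20, 1.17 and 0.659 in the NUP98-NSD1 libraries and 3.33, 2.37 and 3.15 in the NUP98-NSD1+NRASG12D libraries. Tlr4 was below Ly96 in all NRASG12D libraries and above it in all libraries with both oncogenes, and no group overlapped another. The mean log2 ratio differed by 1.22 between NUP98-NSD1 and NRASG12D cells, by 2.80 between cells with both oncogenes and NRASG12D cells and by 1.58 between cells with both oncogenes and NUP98-NSD1 cells. Each of these differences had p = 0.1 in a two-sided exact permutation test, the smallest that 3 libraries against 3 allow, and 0.15 after adjustment over the 18 ratio tests made. The ratio of Tlr4 to Cd14 went the other way, at 31.1, 10.2 and 124 in the NRASG12D, 0.847, 0.823 and 1.05 in the NUP98-NSD1 and 0.434, 0.515 and 0.119 in the NUP98-NSD1+NRASG12D libraries, also without overlap. In NRASG12D cells this ratio rests on few Cd14 fragments, and with 1 FPKM added to both genes the difference to NUP98-NSD1 cells went from -5.24 to -2.84 on the log2 scale. Ratios of transcripts say nothing of the protein complexes.

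**Figure D2:**
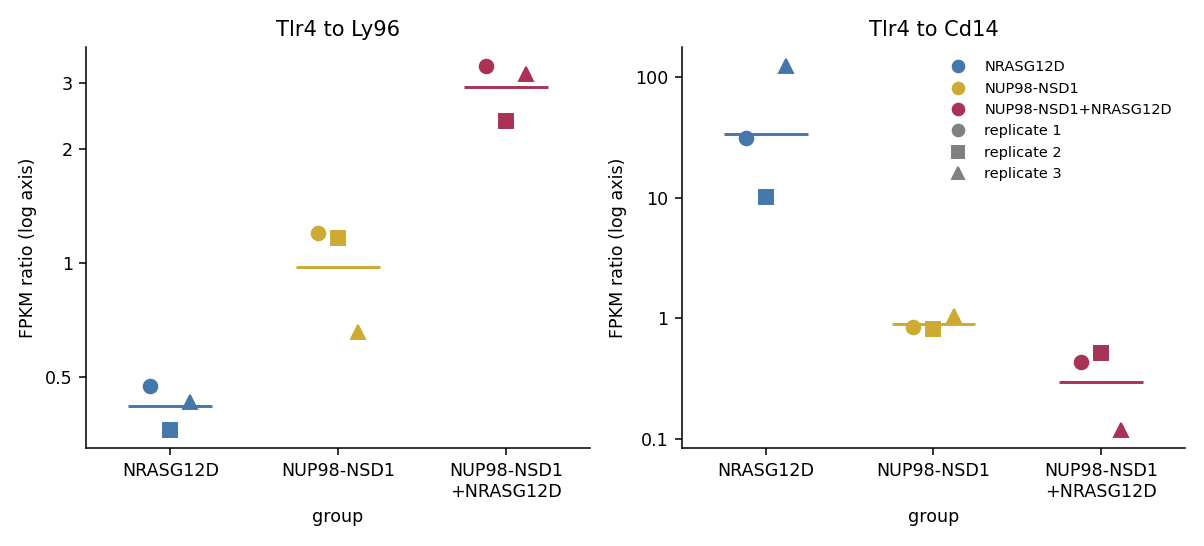
Ratio of Tlr4 to Ly96 FPKM and of Tlr4 to Cd14 FPKM in each library (log axes), with symbols for the replicates and bars for the geometric mean of 3 libraries. The Tlr4 to Ly96 ratio goes from at most 0.472 in NRASG12D to at least 2.37 in NUP98-NSD1+NRASG12D libraries, and the Tlr4 to Cd14 ratio from at least 10.2 to at most 0.515.

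Tlr2 (ENSMUSG00000027995.10, chromosome 3 from 83836272 to 83841767, minus strand) encodes the shared chain of the lipopeptide receptors. It had 0.180, 0.471 and 0.326 FPKM in the NRASG12D libraries, 21.1, 12.3 and 14.5 FPKM in the NUP98-NSD1 libraries and 32.2, 47.2 and 48.9 FPKM in the NUP98-NSD1+NRASG12D libraries, with no overlap between groups. Its log2 fold change was 3.65 (SE 0.20, adjusted p = 8.52e-05) in NUP98-NSD1 and 5.03 (SE 0.21, adjusted p = 3.37e-05) in NUP98-NSD1+NRASG12D against NRASG12D cells, and both calls held under all 13 alternatives. Against NUP98-NSD1 cells, NUP98-NSD1+NRASG12D cells were higher by 1.38 (SE 0.25, adjusted p = 0.0241). This call was lost without NUP98-NSD1 replicate 2 or 3 (adjusted p = 0.0987 and 0.101), without NUP98-NSD1+NRASG12D replicate 2 or 3 (adjusted p = 0.0573 and 0.0811), without the filter on low values (adjusted p = 0.0975) and with the replicate block (adjusted p = 0.0511).

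The genes of its partner chains were expressed at lower levels. Tlr1 (ENSMUSG00000044827.10, chromosome 5 from 64924679 to 64933563, minus strand) had 0.317, 0.313 and 0.444 FPKM in the NRASG12D, 3.15, 2.69 and 2.44 FPKM in the NUP98-NSD1 and 3.797, 12.1 and 2.98 FPKM in the NUP98-NSD1+NRASG12D libraries. The NRASG12D libraries lay below all others, and replicate 2 alone was far above NUP98-NSD1 levels among the cells with both oncogenes. The log2 fold change was 1.47 (SE 0.13, adjusted p = 0.000503) in NUP98-NSD1 and 2.21 (SE 0.43, adjusted p = 0.00755) in NUP98-NSD1+NRASG12D against NRASG12D cells, and 0.75 (SE 0.43, adjusted p = 0.369) between the latter and NUP98-NSD1 cells. Tlr6 (ENSMUSG00000051498.6, chromosome 5 from 64952031 to 64960097, minus strand), its neighbour and closest relative, had 0.642, 0.808 and 1.27 FPKM in NRASG12D, 2.09, 1.74 and 1.01 FPKM in NUP98-NSD1 and 0.855, 2.65 and 6.84 FPKM in NUP98-NSD1+NRASG12D libraries. All 3 groups overlapped for Tlr6, and its log2 fold changes of 0.45 (SE 0.21, adjusted p = 0.107), 0.99 (SE 0.49, adjusted p = 0.146) and 0.55 (SE 0.50, adjusted p = 0.595) did not pass. The first of them changed sign after quantile normalization (-0.0094, adjusted p = 0.975) and passed without NUP98-NSD1 replicate 3 (0.62, adjusted p = 0.0235), and the second passed without NUP98-NSD1+NRASG12D replicate 1 (1.5, adjusted p = 0.0226). Of the stretches of 50 bases in Tlr1 transcripts, 15.4% also occur in transcripts of other genes, mostly Tlr6, and 12.3% of those of Tlr6 do, mostly in Tlr1. How fragments with several alignments were divided is not stated, so the levels of these genes are less certain than those of Tlr2, Tlr7, Tlr8, Tlr9, Tlr13, Cd14 and Ly96, which share no such stretch.

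Among the endosomal receptors, Tlr13 had the highest level in every library. Tlr13 (ENSMUSG00000033777.4, chromosome X from 106143204 to 106160493, plus strand) had 0.437, 1.40 and 0.446 FPKM in the NRASG12D libraries, 7.87, 4.38 and 7.10 FPKM in the NUP98-NSD1 libraries and 15.9, 50.9 and 38.8 FPKM in the NUP98-NSD1+NRASG12D libraries. The groups did not overlap. The log2 fold change was 2.09 (SE 0.27, adjusted p = 0.00154) in NUP98-NSD1 and 4.26 (SE 0.44, adjusted p = 0.000561) in NUP98-NSD1+NRASG12D against NRASG12D cells. A further difference, of 2.17 (SE 0.43, adjusted p = 0.0296) between the cells with both oncogenes and those with NUP98-NSD1 alone, was the only one of the 3 calls in that comparison that remained with the replicate block. It was lost after median-ratio scaling (adjusted p = 0.0522), without the filter (adjusted p = 0.128) and in every refit with a library left out, other than the one without NUP98-NSD1+NRASG12D replicate 1, with adjusted p-values of 0.0719, 0.108 and 0.099 without NUP98-NSD1 replicates 1, 2 and 3 and of 0.0588 and 0.0982 without NUP98-NSD1+NRASG12D replicates 2 and 3.

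Tlr7 and Tlr8, neighbours on chromosome X that encode sensors of single-stranded RNA and its breakdown products, were at or near the detection floor in NRASG12D cells. Tlr7 (ENSMUSG00000044583.13, 167304929 to 167330558, minus strand) had 0.0438, 0.112 and 0.0384 FPKM there, 3.01, 1.71 and 1.89 FPKM in NUP98-NSD1 and 2.98, 21.3 and 9.07 FPKM in NUP98-NSD1+NRASG12D libraries. Tlr8 (ENSMUSG00000040522.5, 167242696 to 167264329, minus strand) had 0.0132, 0.0180 and 0.0141 FPKM, 2.27, 1.51 and 1.23 FPKM, and 3.72, 14.0 and 2.92 FPKM in the same order. Both genes had all NRASG12D libraries below all others, and for both the cells with both oncogenes were highest in replicate 2. Tlr7 in NRASG12D replicate 3 corresponded to about 3 fragments. The log2 fold changes against NRASG12D cells were 1.57 (SE 0.18, adjusted p = 0.00104) for Tlr7 and 1.38 (SE 0.17, adjusted p = 0.0014) for Tlr8 in NUP98-NSD1 cells, and 3.18 (SE 0.56, adjusted p = 0.00514) and 2.69 (SE 0.48, adjusted p = 0.00542) in NUP98-NSD1+NRASG12D cells. With all 9 libraries in the fit, the calls in NUP98-NSD1 cells were lost (adjusted p = 0.0541 for Tlr7 and 0.0511 for Tlr8). The Tlr8 values of all NRASG12D libraries lay under the floor of 3 fragments per library, with about 4 fragments over the group against 466 in NUP98-NSD1 and 1760 in NUP98-NSD1+NRASG12D libraries. Per fragment sequenced the ratio was 120 (95% interval 46.7 to 443) and 479 (95% interval 187 to 1760), intervals that cover counting error only. Without NUP98-NSD1+NRASG12D replicate 2, which held about 1172 of the 1760 fragments, the second ratio was 237 (95% interval 91.9 to 871). Between the cells with both oncogenes and NUP98-NSD1 cells, Tlr7 differed by 1.61 (SE 0.58, adjusted p = 0.144) and Tlr8 by 1.31 (SE 0.50, adjusted p = 0.165).

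Tlr9 (ENSMUSG00000045322.10, chromosome 9 from 106222598 to 106226883, plus strand), the receptor of DNA with unmethylated CpG, was at the detection floor in NRASG12D cells and low in the others. It had 0.0358, 0.0243 and 0.0383 FPKM in NRASG12D, 0.331, 0.217 and 0.275 FPKM in NUP98-NSD1 and 0.356, 1.02 and 0.138 FPKM in NUP98-NSD1+NRASG12D libraries, so the NRASG12D libraries lay below the others, each at about 3 fragments. Over the groups this was 9 fragments in NRASG12D, 77 in NUP98-NSD1 and 133 in NUP98-NSD1+NRASG12D libraries, a ratio per fragment sequenced of 8.83 (95% interval 4.42 to 20.0) and 16.1 (95% interval 8.22 to 35.9) against NRASG12D, with intervals for counting error only. Replicate 2 of NUP98-NSD1+NRASG12D held about 87 of the 133 fragments, and without it the second ratio was 8.23 (95% interval 3.98 to 19.1). That library alone exceeded 1 FPKM, so Tlr9 did not pass the filter. With no filter, limma called Tlr9 higher in NUP98-NSD1 than in NRASG12D cells (0.30 on the log2 scale, adjusted p = 0.0219), and the differences of cells with both oncogenes from NRASG12D cells (0.50, adjusted p = 0.226) and from NUP98-NSD1 cells (0.20, adjusted p = 0.704) did not pass. The other TLR genes of the mouse, Tlr3, Tlr5, Tlr11 and Tlr12, also failed the filter. Tlr3 reached 3.13 FPKM in NUP98-NSD1+NRASG12D replicate 2 and at most 0.333 FPKM elsewhere, Tlr5 at most 1.02 FPKM, Tlr12 at most 0.313 FPKM and Tlr11 at most 0.028 FPKM.

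**Figure D3:**
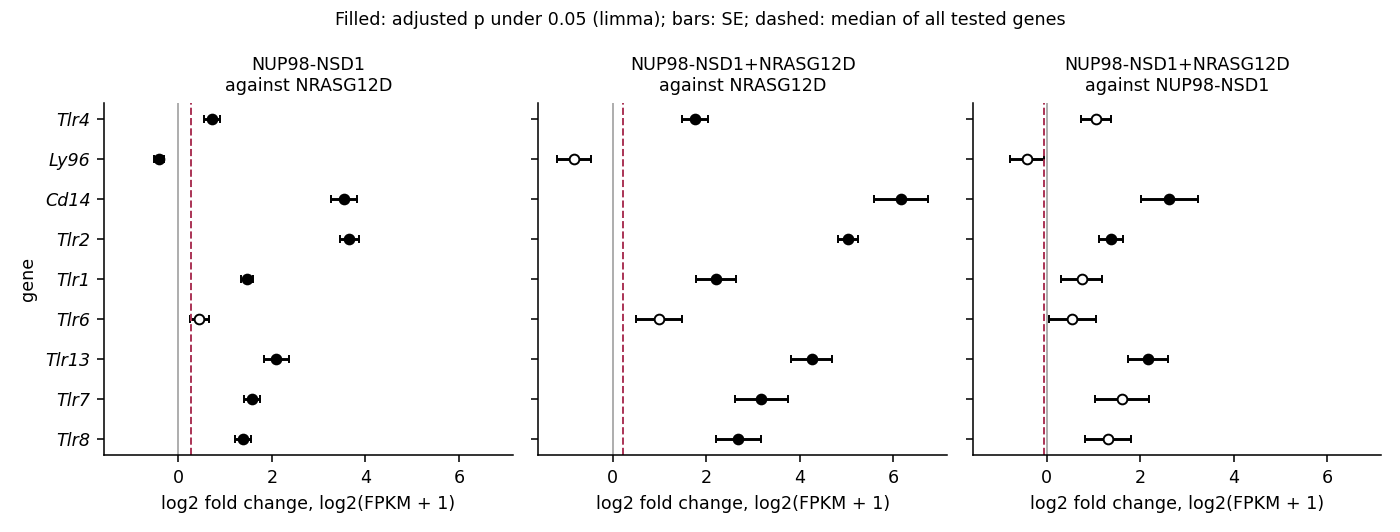
Log2 fold changes of the 9 tested genes on the log2(FPKM + 1) scale in the 3 comparisons, with bars for the standard error, filled points for an adjusted p under 0.05 and a dashed line for the median of all tested genes (0.27, 0.23 and -0.059). Tlr2 and Cd14 have the largest differences from NRASG12D cells, and Ly96 lies left of 0 in all 3 panels.

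By overlap alone, NUP98-NSD1 libraries lay above all NRASG12D libraries for 8 of the 10 genes (all but Tlr6 and Ly96), where 50.7% of the tested genes did, and below them for Ly96, where 13.5% did. The NUP98-NSD1+NRASG12D libraries lay above all NRASG12D libraries for the same 8 genes (38.7% of the tested genes). They lay above all NUP98-NSD1 libraries for 5 of the 10 (Tlr2, Tlr4, Tlr8, Tlr13 and Cd14), where 11.6% of the tested genes did. The 10 genes include Tlr9, which failed the filter and is not among the tested genes. Tlr9 is also among the 8 genes of both comparisons with NRASG12D libraries. Tlr1, Tlr2, Tlr7, Tlr8, Tlr13 and Cd14 passed the filter through libraries with NUP98-NSD1. Their position above the NRASG12D libraries is therefore not independent of the filter either.

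Taken as the highest over the lowest library, the spread of the cells with both oncogenes was the widest of the 3 groups for 7 of the 10 genes. For Tlr2, Tlr13 and Cd14 this factor was largest in NRASG12D cells (2.61, 3.21 and 11.5), where their levels were low. By the standard deviation of FPKM, the cells with both oncogenes had the widest spread for these 3 genes as well (9.21, 17.8 and 103 FPKM). Replicate 2 was the highest of the 3 libraries for Tlr1, Tlr4, Tlr7, Tlr8, Tlr9, Tlr13 and Ly96, replicate 3 for Tlr2, Tlr6 and Cd14, and replicate 1 was the lowest for 7 of the 10 genes. The highest library exceeded the lowest 7.99 times for Tlr6, 7.41 times for Tlr9, 7.15 times for Tlr7, 5.62 times for Cd14, 4.81 times for Tlr8 and 4.05 times for Tlr1, but 1.52 times for Tlr2. In NUP98-NSD1 cells this factor was between 1.24 (Ly96) and 2.07 (Tlr6), and replicate 1 was highest for 9 of the 10 genes. Replicate 2 of NUP98-NSD1+NRASG12D had the most mast cell marker expression of its group (4336 FPKM, against 972.2 and 744.5 FPKM in replicates 1 and 3) and was highest for each of the 10 mast cell markers. Its megakaryocyte and erythroid sum was 1218 FPKM, against 78.8 and 116.5 FPKM, most of it Pf4 (1157 FPKM, against 62.8 and 110.9 FPKM). Its neutrophil sum was the lowest (8476 FPKM, against 13820 and 18820 FPKM), but it was the lowest library for only 3 of the 11 neutrophil markers and the highest for Camp and Ltf. Replicate 1 of NUP98-NSD1 had the highest monocyte and macrophage sum of its group (933.7 FPKM, against 705.1 and 502.3 FPKM). The part of these marker levels in the differences between libraries was not tested.

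**Figure D4:**
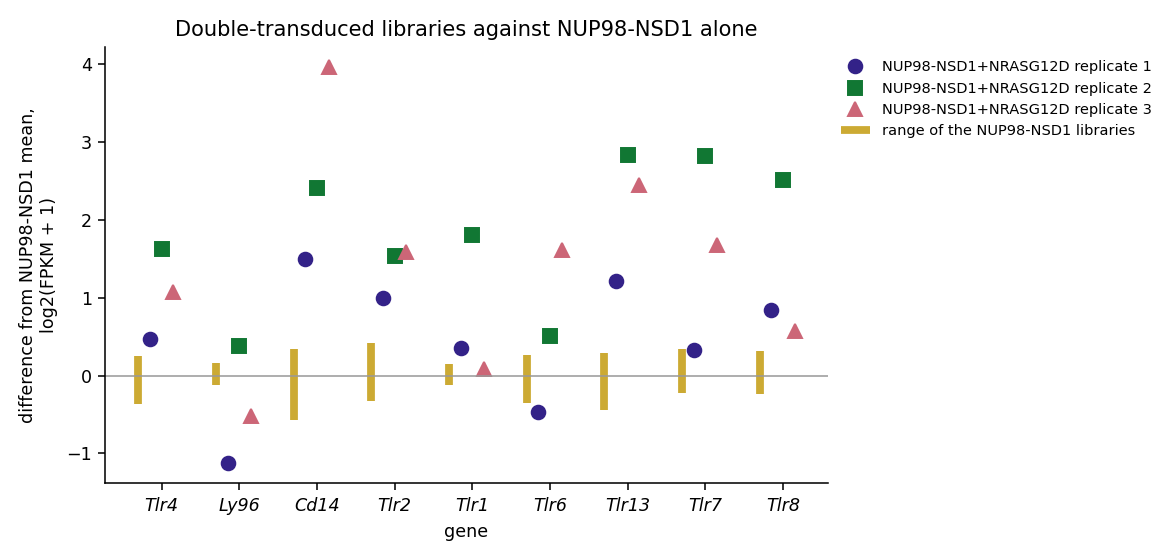
Difference of each NUP98-NSD1+NRASG12D library from the mean of the NUP98-NSD1 libraries on the log2(FPKM + 1) scale, with vertical bars for the range of the NUP98-NSD1 libraries. Replicate 2 lies 2.82 above for Tlr7 and 2.51 for Tlr8, while replicate 1 lies 0.333 and 0.842 above, and for Ly96 the libraries lie on both sides of 0 (-1.13, 0.383 and -0.52).

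The sequences before the start of the genes that rose are shown because these genes moved together. RefSeq windows on GRCm38.p6 of 300 bases, 250 before to 50 after the start of the gene, were used for 6 of the 10 genes (Tlr1, Tlr2, Tlr6, Tlr8, Tlr9 and Tlr13, with 8 windows). Printed are the bases upstream of any annotated transcript for the 4 of them that passed the test in NUP98-NSD1 cells, 5′ to 3′ on the strand of the gene, with GAGGAAG, the core motif of the myeloid factor PU.1, in capitals.
Tlr1 (chr5:64933564-64933808, minus strand): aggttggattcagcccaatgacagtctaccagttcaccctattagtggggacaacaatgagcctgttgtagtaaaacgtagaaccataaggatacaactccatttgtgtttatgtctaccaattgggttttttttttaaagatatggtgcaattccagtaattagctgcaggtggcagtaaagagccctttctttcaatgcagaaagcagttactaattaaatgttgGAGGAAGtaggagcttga
Tlr2 (chr3:83841768-83841858, minus strand): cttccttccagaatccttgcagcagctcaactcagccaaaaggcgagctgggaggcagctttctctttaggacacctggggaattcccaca
Tlr8 (chrX:167264330-167264579, minus strand): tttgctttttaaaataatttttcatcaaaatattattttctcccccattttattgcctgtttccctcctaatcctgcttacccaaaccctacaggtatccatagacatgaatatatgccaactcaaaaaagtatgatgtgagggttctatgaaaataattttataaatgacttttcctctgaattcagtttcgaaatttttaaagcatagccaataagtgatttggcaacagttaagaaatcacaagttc
Tlr13 (chrX:106143025-106143203, plus strand): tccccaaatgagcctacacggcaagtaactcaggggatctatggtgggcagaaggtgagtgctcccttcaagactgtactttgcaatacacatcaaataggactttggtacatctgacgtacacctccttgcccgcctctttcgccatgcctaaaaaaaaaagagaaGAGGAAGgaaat

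Searched on both strands, GAGGAAG occurred in 3 of the 8 windows, those of Tlr1, 23 bases before the RefSeq start, of Tlr13, 83 bases before it, and of Tlr9, 112 bases before it and once after it. It occurred in 13.6% of the 32851 windows of all genes. The C/EBP motif TTGCNNAA occurred in 3 of the 8 windows (Tlr6, Tlr8 and Tlr13) and in 10.8% of all. The NF-kappaB motif GGNNNTTCC occurred in 2 of the 8 (Tlr2 and Tlr6) and in 18.5% of all, the interferon response motif AAANNGAAA in 2 of the 8 (Tlr2 and Tlr6) and in 10.6% of all, and the AP-1 motif TGANTCA in the window of Tlr9 and in 7.81% of all. A match is a description of the letters, and binding was not measured.

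The genes that the TLRs depend on and signal through showed a mixed picture. Some genes of these lists, such as Ticam2, were under 1 FPKM in every NRASG12D library. They passed the filter through libraries with NUP98-NSD1, so their calls against NRASG12D cells are not independent of the filter. Of 10 genes for folding, traffic and ligand delivery, 8 were tested, of which NUP98-NSD1 cells had 5 higher and 1 lower than NRASG12D cells (42.2% and 9.98% of all genes), with a median of 0.45 on the log2 scale against 0.27 for all genes. Unc93b1, the membrane protein that brings the endosomal TLRs from the endoplasmic reticulum to their compartment, had 3.88, 12.1 and 4.22 FPKM in NRASG12D, 77.8, 62.4 and 49.9 FPKM in NUP98-NSD1 and 157, 215 and 184 FPKM in NUP98-NSD1+NRASG12D libraries, without overlap. Its log2 fold changes of 3.19 (SE 0.38, adjusted p = 0.00123), 4.74 (SE 0.38, adjusted p = 0.000231) and 1.55 (SE 0.22, adjusted p = 0.0107) were the largest of this list in all 3 comparisons, and the third was lost without NUP98-NSD1 replicate 2 (adjusted p = 0.0535) and without the filter (adjusted p = 0.0607). Cd180, which encodes a TLR-like surface protein without a TIR domain, was lower in NUP98-NSD1 cells (-0.67, SE 0.094, adjusted p = 0.00203), with 10.7, 9.21 and 10.2 FPKM against 17.4, 15.8 and 16.4 FPKM. This call was lost with all 9 libraries in the fit (adjusted p = 0.106). With both oncogenes, 4 of the 8 genes were higher than in NRASG12D cells (24.2% of all genes) and 4 did not pass, and the smallest change was that of Cnpy4 (0.027, adjusted p = 0.919), whose sign differed between settings.

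Of 16 adaptor and kinase genes 15 were tested, and 5 were higher and 2 lower in NUP98-NSD1 against NRASG12D cells (42.2% and 9.98% of all genes), with a median of 0.13 against 0.27 for all genes. Ticam2, the adaptor that links TLR4 to TRIF, rose most, by 1.28 (SE 0.21, adjusted p = 0.00326), from 0.224, 0.212 and 0.136 FPKM to 2.43, 2.38 and 1.10 FPKM. Irak2, a kinase of the MyD88 complex, was lower by -0.51 (SE 0.11, adjusted p = 0.00847), a call that was lost with all 9 libraries in the fit (adjusted p = 0.172). With both oncogenes, 4 were higher and 1 lower than in NRASG12D cells (24.2% and 14.1% of all genes), with a median of 0.32 against 0.23. Ikbke, a kinase upstream of interferon regulatory factors, had the largest rise (1.84, SE 0.27, adjusted p = 0.00221), and Map3k7, the kinase TAK1 through which TLRs reach NF-kappaB, fell by 1.69 (SE 0.20, adjusted p = 0.000918). Map3k7 was also the only one of the 15 to pass against NUP98-NSD1 cells, where 2.3% of all genes were higher and 6.31% lower. Its log2 fold change there was -1.24 (SE 0.17, adjusted p = 0.0102), with 1.75, 2.36 and 2.18 FPKM against 5.74, 6.31 and 6.91 FPKM. That call was lost without NUP98-NSD1 replicate 2 or 3 (adjusted p = 0.0544 and 0.0521).

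Of 9 inhibitors of the pathway, 8 were tested, with 3 higher and 2 lower in NUP98-NSD1 and 2 higher and 1 lower in NUP98-NSD1+NRASG12D against NRASG12D cells. Of all genes, 42.2% were higher and 9.98% lower in the first comparison and 24.2% and 14.1% in the second, and the list medians of 0.18 and 0.26 compare with 0.27 and 0.23 over all genes. Dusp1, a phosphatase of MAP kinases, had the largest rise in both (2.68, SE 0.18, adjusted p = 0.000184, and 3.06, SE 0.39, adjusted p = 0.00131). Socs1, which restrains cytokine and TLR signalling, had 116, 101 and 112 FPKM in NRASG12D, 72.9, 69.4 and 71.6 FPKM in NUP98-NSD1 and 9.80, 30.8 and 13.2 FPKM in NUP98-NSD1+NRASG12D libraries. Its groups did not overlap, and its log2 fold changes were -0.61 (SE 0.081, adjusted p = 0.00167), -2.70 (SE 0.38, adjusted p = 0.00189) and -2.09 (SE 0.38, adjusted p = 0.0224). The first was lost with all 9 libraries in the fit (adjusted p = 0.183), and the third without any of the NUP98-NSD1 libraries (adjusted p = 0.0747 to 0.092), without NUP98-NSD1+NRASG12D replicate 3 (adjusted p = 0.0795), with median-ratio scaling (adjusted p = 0.0504) and without the filter (adjusted p = 0.105).

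All 13 genes of the NF-kappaB list were tested, with 3 higher and 3 lower in NUP98-NSD1 and 3 higher and 4 lower in NUP98-NSD1+NRASG12D against NRASG12D cells. Of all genes, 42.2% were higher and 9.98% lower in the first and 24.2% and 14.1% in the second, and the list medians were 0.17 and -0.24 against 0.27 and 0.23 over all genes. Nfkbia, an inhibitor that is itself induced by NF-kappaB, rose by 2.05 (SE 0.33, adjusted p = 0.0031) and 3.72 (SE 0.49, adjusted p = 0.00145). Rel, the c-Rel subunit, was lowest of the list in the first comparison (-0.58, SE 0.091, adjusted p = 0.00279), a call that was lost with all 9 libraries in the fit (adjusted p = 0.0757). Nfkbie, another inhibitor, was lowest in the second (-1.30, SE 0.24, adjusted p = 0.00608). Comparing the cells with both oncogenes to NUP98-NSD1 cells, 0 of the 13 passed in limma, where 2.3% of all genes were higher and 6.31% lower. An unadjusted p under 0.05 was found for 6 of the 13, and the share of all genes with such a p was not computed.

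Of 14 cytokine and enzyme genes that TLR ligands induce, 9 were tested. Most of the 9, Il12a, Nos2 and Cxcl2 among them, were under 1 FPKM in every NRASG12D library. These genes passed the filter through libraries with NUP98-NSD1. The calls and medians of this list against NRASG12D cells are therefore not independent of the filter. In NUP98-NSD1 against NRASG12D cells 7 were higher (42.2% of all genes) and 2 did not pass, with a median of 1.12 against 0.27 for all genes. The largest was Il12a, a subunit of interleukin-12 (1.85, SE 0.23, adjusted p = 0.00146), a call that was lost with all 9 libraries in the fit (adjusted p = 0.0684), and the smallest was Nos2 (0.10, adjusted p = 0.523). With both oncogenes, 7 were higher than in NRASG12D cells (24.2% of all genes) and Il6 was lower (14.1%), with a median of 1.74 against 0.23. Cxcl2, a chemokine for neutrophils, had 0.0232, 0 and 0.192 FPKM in NRASG12D, 2.34, 2.27 and 2.28 FPKM in NUP98-NSD1 and 9.33, 24.9 and 20.2 FPKM in NUP98-NSD1+NRASG12D libraries. It rose by 4.06 (SE 0.34, adjusted p = 0.00026) against NRASG12D and by 2.44 (SE 0.34, adjusted p = 0.0107) against NUP98-NSD1 cells. Il6 had 35.9, 28.5 and 28.2 FPKM, 32.6, 35.9 and 36.8 FPKM, and 0.871, 5.67 and 0.613 FPKM in the same groups, and fell by 3.54 (SE 0.52, adjusted p = 0.00229) against NRASG12D and by 3.73 (SE 0.52, adjusted p = 0.0107) against NUP98-NSD1 cells. The calls of Cxcl2 and Il6 against NUP98-NSD1 cells were lost without NUP98-NSD1 replicate 3 (adjusted p = 0.0517 for both) and without the filter (adjusted p = 0.0647 and 0.0687). Against NUP98-NSD1 cells, 2 of the 9 genes were higher and 2 lower (2.3% and 6.31% of all genes), and 5 did not pass. The list median there was 1.15 against -0.059 for all genes. The list thus had genes that moved in either direction in the cells with both oncogenes.

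**Figure D5:**
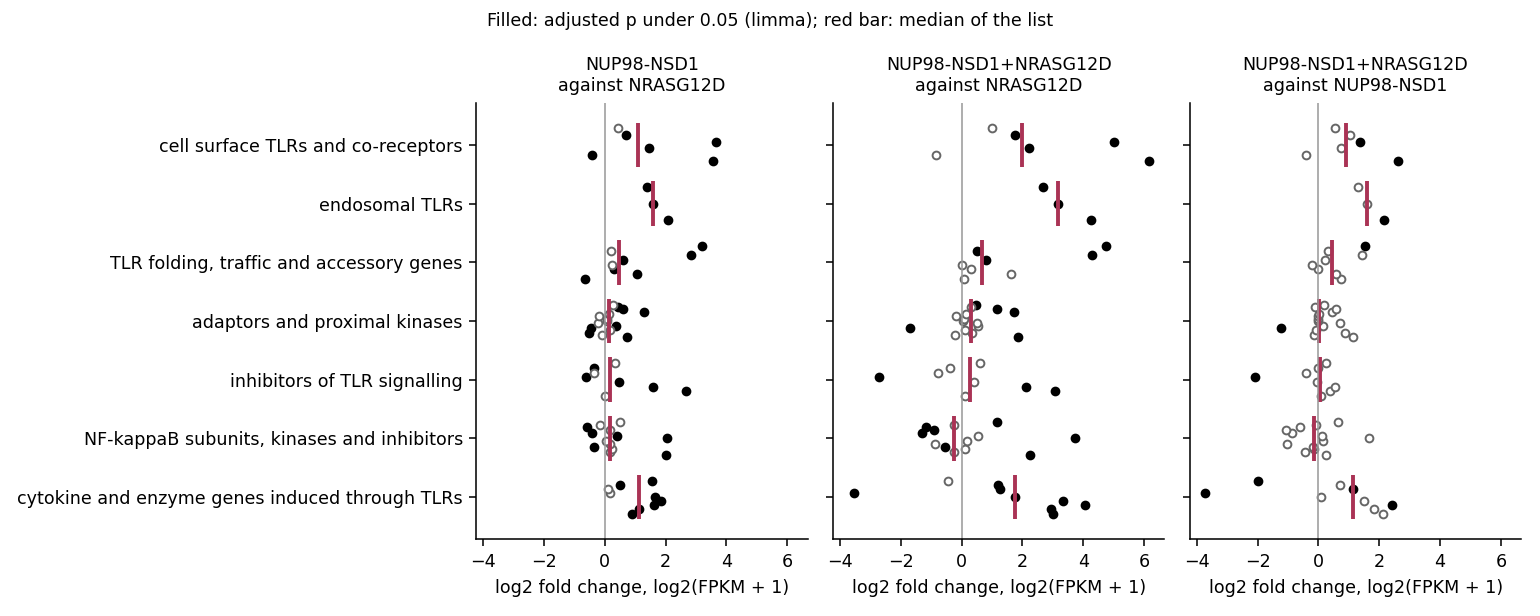
Log2 fold changes on the log2(FPKM + 1) scale of the tested genes of each list in the 3 comparisons, with filled points for an adjusted p under 0.05 and a red bar for the median of the list. The medians of the endosomal TLRs were 1.57, 3.18 and 1.61, those of the adaptors and kinases 0.13, 0.32 and 0.012.

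The genes whose log2(FPKM + 1) was most like that of a receptor over the 9 libraries were listed as a description, since the libraries share 3 groups that set most of each correlation. Among the nearest by Pearson's r were Cybb, Actn1 and Trps1 (0.996 each) for Tlr2 and Glrx and Clec4e (0.996 each) for Cd14. They were Epb41l2 (0.997), Sirpa (0.992) and Lrrc25 (0.992) for Tlr13, Bcl2a1b (0.996), C1qa (0.993) and Ccl12 (0.992) for Tlr7, and Zcchc2 (0.996) and Fcgrt (0.991) for Tlr8. For Tlr1 they were Mrc1 (0.994), Ms4a7 (0.991) and Ric1 (0.989), and for Tlr4 Als2cl (0.994), Atp6v1b2 (0.990) and Gm14328 (0.987). Cybb encodes the catalytic subunit of the phagocyte oxidase, and it had at most 0.128 FPKM in NRASG12D, 19.4 to 33.2 FPKM in NUP98-NSD1 and 56.2 to 144 FPKM in NUP98-NSD1+NRASG12D libraries. C1qa and Mrc1, both textbook macrophage genes (a complement subunit and the mannose receptor), shared the peak of Tlr7 and Tlr1 in NUP98-NSD1+NRASG12D replicate 2, with 144 and 132 FPKM there against at most 29.1 and 12.5 FPKM in any other library. For Ly96 the nearest genes were H2-T23 (0.992), a nonclassical class I gene, Map3k12 (0.983) and Atf7ip (0.981), and for Tlr6 they were Tnfrsf21 (0.979), Ripor2 (0.965) and Gm38575 (0.956). H2-T23 had 86.5, 92.9 and 88.9 FPKM in NRASG12D, 53.9, 59.2 and 77.8 FPKM in NUP98-NSD1 and 22.2, 86.4 and 37.9 FPKM in NUP98-NSD1+NRASG12D libraries, the same order of libraries as Ly96 within the cells with both oncogenes. Among the 9 genes themselves, Tlr1 and Tlr8 (r = 0.986), Tlr4 and Tlr7 (r = 0.977) and Tlr7 and Tlr13 (r = 0.971) were the most alike, while Ly96 had a negative r with each of the other 8, from -0.62 with Cd14 to -0.25 with Tlr6.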

How the data were processed

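RNA of 9 libraries (3 groups of 3, assigned from the sample labels) was sequenced by the authors as paired ends of 50 bp. Their notes name STAR 2.7.2a, Cufflinks 2.2.1 and GRCm38.p6, with GENCODE release 22 of the mouse annotation, and the values the authors deposited are FPKM per gene, with 55330 lines and 55274 identifiers per library. The treatment of strand and of fragments with several alignments is not given in the sources used here. The methods name DESeq2 on counts, which was not run on FPKM.

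Values of repeated identifiers were summed. Depth was estimated from the steps of low FPKM in 3386 single-transcript genes longer than 2500 bp (tolerance of a whole step 0.1), and 3 fragments were taken as the floor. Genes that reached 1 FPKM in 3 or more libraries were tested on log2(FPKM + 1) for each pair of groups with limma 3.58.1 in R 4.3.3 (lmFit, eBayes with a trend), adjusted by Benjamini-Hochberg over all tested genes, at a threshold of 0.05. Scripts were tested on simulated data. Motifs were counted in RefSeq windows, and shared stretches of 50 bases in GENCODE release 21 transcripts.

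The members and gene lists were chosen with earlier results of these data known. Named genes were taken from the members, the other mouse TLRs, the 3 nearest genes of each tested member, and the genes with the largest and smallest change of each list. Nras and single cell type markers (Cpa3, Itgam, Ly6c2, Cx3cr1, S100a8, S100a9, Ngp, Ly6g, Camp, Ltf and Pf4) fall outside this rule and were chosen after their values were seen. A cell type marker, left out of the marker sums, and some of the nearest genes are not reported here. Alternatives were another pseudocount, no filter, 2 scalings, other models, a replicate block and leaving out each library. Python 3.11.15, numpy 2.4.6, pandas 2.3.3, scipy 1.17.1 and matplotlib 3.10.9 were used.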

Additional observations from a re-analysis of the deposited data

How the results depend on the processing

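The differences from NRASG12D cells depended less on the processing than those between the cells with both oncogenes and NUP98-NSD1 cells. Of 351 refits of a receptor or co-receptor gene, 308 kept direction and side of the threshold, 31 lost the call, 11 gained one and 1 changed sign (Tlr6 in NUP98-NSD1 against NRASG12D cells, -0.0094 after quantile normalization). For NUP98-NSD1 against NRASG12D cells a fit of all 9 libraries called 4 of the 9 genes (Tlr1, Tlr2, Tlr13 and Cd14) in place of 8, and 3065 genes in place of 7036, and with no filter 9 were called, Tlr9 among them. With both oncogenes against NRASG12D cells, 5173 genes were called, and 2941 to 6327 when a library was left out, with 3069, 3159 and 2941 without NRASG12D replicates 1, 2 and 3.

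With both oncogenes against NUP98-NSD1 cells, 3 of the 9 genes were called, and 0 without the filter on low values (5 with an unadjusted p under 0.05 in limma), 1 after median-ratio scaling (Tlr2), 1 with the replicate block (Tlr13), 5 with array weights, and 0 to 5 when a library was left out (4 to 7 with an unadjusted p under 0.05). Over all genes the count was 1162, and 152 without the filter, 2251 with all 9 libraries, 3500 with array weights and 283 to 2509 when a library was left out. It was 417, 302 and 283 without NUP98-NSD1 replicates 1, 2 and 3, and 2509 and 494 without replicates 1 and 3 of the cells with both oncogenes. The replicate block, for numbers that the labels do not tie to shared cultures, gave 801 genes here and changed no other call of the 9 genes than those of Tlr2 and Cd14. Deviations of same-numbered libraries from their group means correlated at -0.18 to 0.16, and a library was closest to its own number in another group in 3 of 18 cases.

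After quantile normalization and median-ratio scaling, 43.2% and 49.3% of the calls in NUP98-NSD1 against NRASG12D cells were higher (80.9% as deposited), and 41.3% and 50.9% with both oncogenes (63.1% as deposited). Refits of the pathway genes, added after the data had been seen, changed sign for Nos2 in NUP98-NSD1 against NRASG12D cells (-0.18 after quantile normalization) and for Cnpy4 with both oncogenes against NRASG12D cells (-0.25 after quantile normalization, -0.20 after median-ratio scaling, -0.12 with array weights, and -0.17 to 0.14 when a library was left out). The ratio of Tlr4 to Ly96 kept its direction with 1 FPKM added to both genes and without each library in turn. The causes of these changes were not tested. Depth limits Tlr8 and Tlr9 in NRASG12D cells, whose values lay at or under 3 fragments per library.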
